A study of Triticum aestivum with 6 samples.

Results

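The first part of chromosome 1B of bread wheat (Triticum aestivum) was described in grain of a purple-grained and a white-grained wheat. It comprised 1477 of the 107891 genes in the deposited table. A gene was a member if it lay on 1B, started no later than a coordinate limit just past TraesCS1B02G151800 (1B, 238672976 to 238675576), which is the last member, and had a description that named neither a gliadin nor a glutenin, which left out 21 storage protein genes. The coordinate limit was set on the purple and white levels of these same libraries, so the members' differences between the grain types are given as a description and carry no test. Coordinates are those of the deposited table, whose genome build is not given in the sources used here.

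The groups were purple grain wheat (CW_S) and white grain wheat (W_S), each with 3 RNA sequencing libraries labelled as grain at 30 days after flowering. Both wheats grew in pots of soil and vermiculite in the same kind of climate chamber, and no further treatment or genotype is labelled. The extraction protocol speaks of stems and buds where the tissue label says grain. Nothing in the labels says that replicate libraries come from different plants. The p-values therefore reflect the scatter among these libraries alone, part of which may be technical. Grain colour and all other genetic differences between the wheats cannot be told apart. In bulk grain, fewer cells of a type and less RNA per cell cannot be told apart either.

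Bread wheat is a hexaploid that carries 3 related subgenomes, A, B and D, so most 1B genes have counterparts on 1A and 1D. The short arm of 1B is known for clustered storage protein loci and disease resistance genes, and many bread wheats carry the short arm of rye chromosome 1R in its place. The labels do not say which arm either wheat carries, and no genotype was tested. Copies on A, B and D can share reads, so counts on a 1B gene cannot always be told apart from reads of its copies, and values of single copies are uncertain.

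Totals ran from 80898310 to 102868886 counts in the purple libraries and from 78660932 to 88002127 in the white ones. Endosperm markers (alpha- and gamma-gliadins, granule-bound starch synthase and puroindolines, 49 of 51 genes with counts) held 5.72% to 14% of summed FPKM in purple and 8.02% to 12.6% in white libraries. Embryo and aleurone markers (Em proteins and Globulin-1 S, 10 of 10 genes with counts; no gene is described as an oleosin) held 0.310% to 1.54% in purple and 0.0304% to 0.178% in white libraries. Green tissue markers (chlorophyll a-b binding and Rubisco small subunit proteins, 67 of 74 genes with counts) held 0.00370% to 0.0262% in purple and 0.0307% to 0.0364% in white libraries. Library purple 3 stood apart from the other purple libraries, with Pearson correlations of log2 values across genes of 0.885 and 0.892 to them, against 0.945 between the other pair. Its share of endosperm markers was the highest of the purple libraries. Without it, 51.6% of the expressed members described below lay under 10% of white, against 50.3% with it. Library white 1 likewise correlated at 0.913 and 0.898 with the other white libraries, against 0.948 between those. Without white 1, 52.0% of the expressed members lay under 10% of white. The part of these differences in the results was not tested.

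Most expressed members were far lower in purple grain, and many had no counts there at all. The purple libraries placed 0.276%, 0.276% and 0.223% of their counts on the members, against 1.32%, 1.22% and 1.28% in the white libraries. Members with at least 10 counts numbered 463 ± 2.52 in purple and 731 ± 13.1 in white libraries (SD, n = 3 each). Neither measure overlapped between the grain types. Of the 1477 members, 514 had 0 counts in all 6 libraries, 334 had counts in white libraries only, 48 in purple libraries only, and 581 in both. The shares of all genes in these groups are not given here, so nothing is read from these counts. A mean of at least 1 FPKM (fragments normalised to gene length and library depth) was reached by 175 members (11.8%) in purple grain and by 467 (31.6%) in white grain. On the rest of 1B, the same level was reached by 41.5% of 3216 genes in purple and by 38.5% in white grain.

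The 467 members with a white mean of at least 1 FPKM are called expressed below. Choosing them by their white level favours genes that are low in purple, and the same choice was made for every set they are compared with. Their median purple level was 9.75% of the white level (quartiles 1.61% and 24.2%), against 98.0% on the rest of 1B, 93.0% on 1A and 96.2% on 1D up to the same coordinate, and 86.6% over all genes. The medians in single purple libraries were 9.22%, 8.71% and 10.2% of the white mean, so the 3 libraries gave almost the same picture. Purple means lay under 10% of white for 235 members (50.3%), where 2.87% of all expressed genes did so. Purple means lay under 50% of white for 436 members (93.4%), where 14.3% of all expressed genes did so. All 3 purple libraries lay below all 3 white libraries for 425 members (91.0%), where 23.8% of all expressed genes showed this. They lay above all white libraries for 3 members, a count for which no share over all genes is given.

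**Figure D1:**
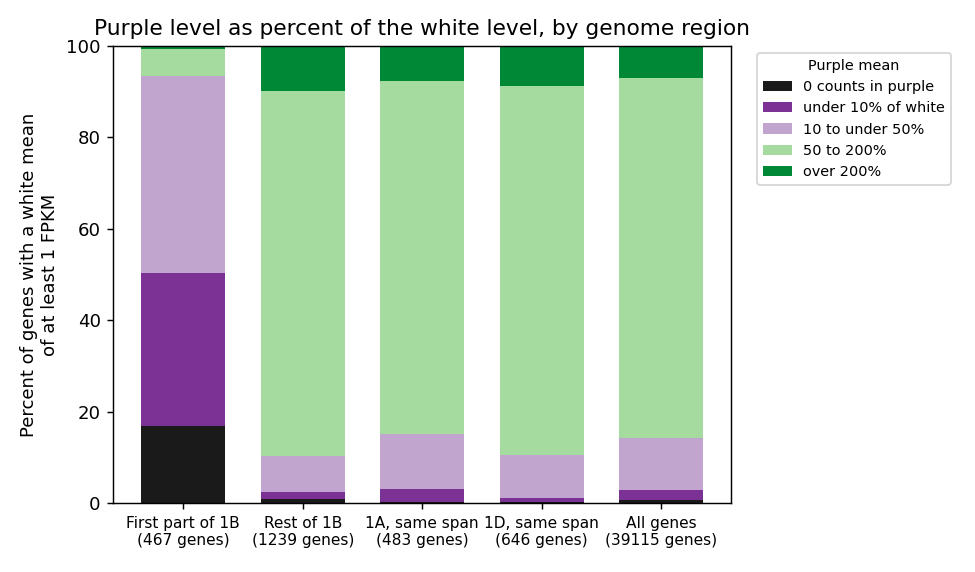
Share of genes with a white mean of at least 1 FPKM whose purple mean had 0 counts or lay under 10%, at 10 to under 50%, at 50 to 200% or over 200% of the white mean, in percent, for the first part of 1B, the rest of 1B, the same span of 1A and 1D, and all genes. In the first part of 1B 93.4% of the bar lies under 50% of white, against 10.3% for the rest of 1B.

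In the edgeR quasi-likelihood fit over all 48492 tested genes, 496 members were tested and 981 were too low. Members called lower in purple, by a Benjamini-Hochberg adjusted p below 0.05 with an absolute log2 difference from 1 upwards, numbered 337, where 2.32% of all tested genes were called lower. The 1 member called higher was TraesCS1B02G084300, described further on, where 2.87% of all tested genes were called higher. The rule used this contrast, so nothing is read from these counts. Without library purple 2, white 2 or white 3 the members called lower numbered 186, 173 and 192, where 0.735%, 0.80% and 0.829% of all tested genes were called lower. The median edgeR log2 difference of the expressed members was -3.21, and that of all tested genes was 0.02.

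The low level ran along the whole stretch. Window medians lay between 5.52% and 17.6% of white inside the limit and, in windows of at least 18 expressed genes, between 71.3% and 122% beyond it. In each window of 20 Mb from the start of the chromosome to 220 Mb, 39.6% to 67.7% of expressed members lay under 10% of white, and the highest share stood in the first 20 Mb. The last such window with a member without purple counts ran from 200 to 220 Mb. From 220 Mb to the limit, 12 members were expressed and 10 of them lay at 10% to under 50%. Beyond the limit, 16 of 18 expressed genes from 240 to 260 Mb lay at 50% or more of white.

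The last expressed members inside the limit were TraesCS1B02G150800 (POLLUX-like ion channel, 11.7% of white), TraesCS1B02G151300 (plastid stromal heat shock protein 70, 12.8%), TraesCS1B02G151700 (TATA-box-binding protein 1, which positions RNA polymerases at promoters, 46.1%) and TraesCS1B02G151800 (cyclin-A1-4-like, 24.4%). The first expressed genes outside were TraesCS1B02G151900 at 111%, TraesCS1B02G152000 (a RING finger protein) at 74.3%, TraesCS1B02G152100 at 27.9% and TraesCS1B02G152200 at 89.3% of white. The limit was placed on these values, so the step at it is not a result of its own.

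**Figure D2:**
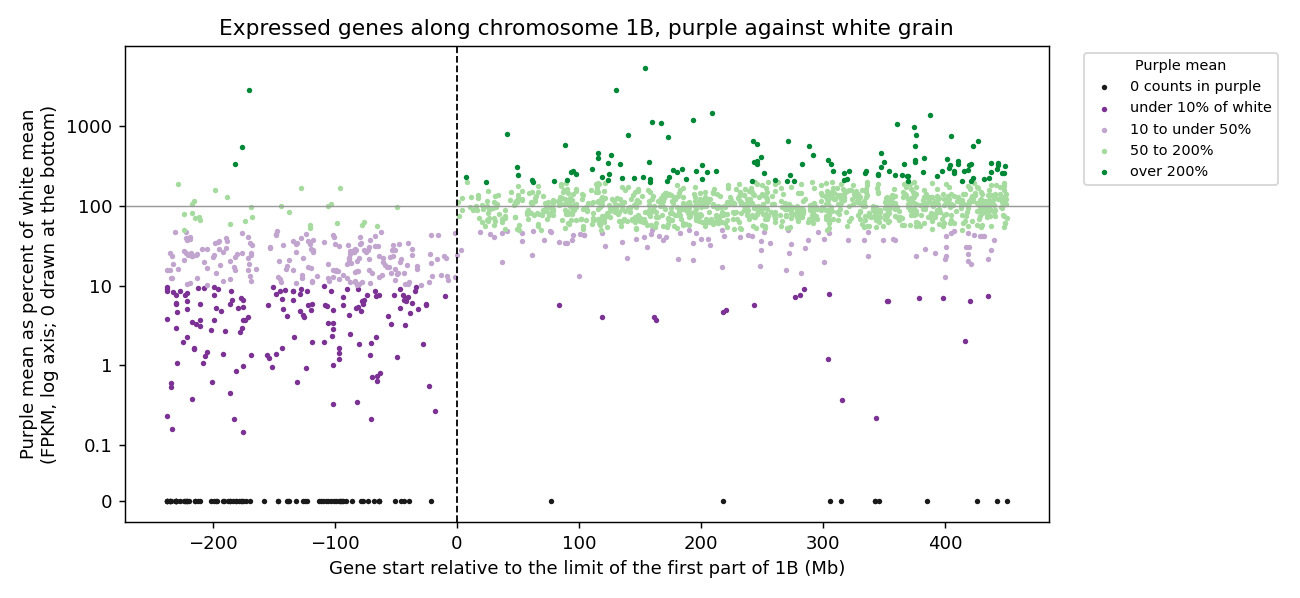
Purple mean as percent of the white mean (log axis, 0 at the bottom) for each expressed gene of 1B against the distance of its start from the limit in Mb, coloured by class. Left of the limit most of the 467 members lie under the line at 100%, spread from 0 to 48.9% for 436 of them, and right of it most genes lie around the line.

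Members without any purple count numbered 79 of the 467 (16.9%), against 0.849% of all expressed genes. Their summed white counts ran from 204 to 12117 with a median of 797, well above the floor of 3 counts per library. They were more often weakly expressed in white grain: 29.2% of members at 1 to under 2 FPKM had no purple count, 23.5% at 2 to under 5, 7.32% at 5 to under 20, and 7.69% at 20 FPKM or more. Only 28 of the 79 carried an informative description.

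Of the 6 leading members without purple counts, 4 are described as a defensin, as PR60 or as a chymotrypsin inhibitor, and the others as UHRF2 and fnkC. TraesCS1B02G018000 (1B, 8710313 to 8710965), described as a defensin, a small cysteine-rich antimicrobial peptide, had 0 counts in each purple library and 114, 17.5 and 23.4 FPKM in the white ones. Against a floor of 3 counts per purple library it was at least 971-fold lower in purple grain, a bound for counting error only. White 1 carried much of that bound, and without it the gene was at least 384-fold lower. A pair of neighbouring defensin genes, TraesCS1B02G018100 and TraesCS1B02G017700 (named after their values were seen), also had 0 counts in purple and averaged 4.06 ± 2.72 and 2.80 ± 3.38 FPKM in white grain, the last gene with 0 counts in white 3 as well.

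TraesCS1B02G036100 (1B, 17288018 to 17288641) and TraesCS1B02G034400 (1B, 16506028 to 16506678) are described as subtilisin-chymotrypsin inhibitor-2A, a barley grain inhibitor of serine proteases. Both had 0 counts in every purple library. In white libraries TraesCS1B02G036100 had 55.0, 26.6 and 22.1 FPKM, and TraesCS1B02G034400 had 15.5, 40.5 and 27.4 FPKM. A further copy on the same stretch, TraesCS1B02G035100, had 0.642, 0 and 1.13 FPKM in purple and 0, 0 and 3.70 in white libraries, and its groups overlapped.

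TraesCS1B02G007900 (1B, 4340022 to 4343180), described as the E3 ubiquitin ligase UHRF2, in mammals a protein that binds methylated DNA, had 0 counts in purple and 11.7, 22 and 23.9 FPKM in white libraries, at least 1504-fold lower. TraesCS1B02G130600, a probable inactive protein kinase (fnkC), had 0 counts in purple and 7.43 ± 3.78 FPKM in white grain. The TT8-like gene TraesCS1B02G113100 (named after its values were seen; TT8 is a bHLH regulator of flavonoid pigments in Arabidopsis) had 0 counts in purple and 0.984, 0.818 and 1.41 FPKM in white libraries.

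Members with purple counts but under 10% of white numbered 156 (33.4%), with a median of 4.70% of white. The highest white level among them belonged to a storage protein gene that the rule kept. TraesCS1B02G011300 (1B, 5175575 to 5176186), described as avenin-3, an oat prolamin related to the gliadins, had 2.07, 1.95 and 10.2 FPKM in purple and 3942, 679 and 4315 FPKM in white libraries. The purple libraries all lay below the lowest white one. The edgeR log2 difference was -9.25 (SE 1.36).

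TraesCS1B02G034300, described as a serine proteinase inhibitor-like allergen, had 5.12, 4.09 and 39.7 FPKM in purple and 4.93, 371 and 257 FPKM in white libraries. White 1 lay below purple 1 and purple 3, so the groups overlapped. Its neighbour TraesCS1B02G035000 with the same description overlapped as well, at 6.70, 3.98 and 30.5 FPKM in purple and 2.02, 99.9 and 60.1 in white libraries. In both genes white 1 stood apart from white 2 and white 3.

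A cluster of 4 expressed genes within 63468452 to 63889982 is described as endosperm transfer cell specific PR60, named for the cells that pass nutrients from the mother plant into the endosperm. TraesCS1B02G080900 had 2.58, 0 and 0.0130 FPKM in purple and 1118, 259.9 and 425 in white libraries. TraesCS1B02G081300 had 5.51, 8.23 and 19 FPKM in purple and 380.0, 70.1 and 152 in white libraries. TraesCS1B02G081100 had 0, 0 and 1.02 FPKM in purple and 64.8, 15.1 and 25.3 in white libraries. The groups did not overlap in any of these, and TraesCS1B02G081200 had 0 counts in purple and 47.4 ± 27.9 FPKM in white grain. Near-identical neighbours such as these can share reads, so the split between them is uncertain.

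In the list of defensins and other small defence proteins, 8 of 10 expressed members lay under 10% of white, 1 was reduced and 1 lay above 50%. Their median was 0.557% of white, against 9.75% over all expressed members, and 8.24% of the 170 expressed genes of this list elsewhere in the genome lay under 10%. The list was added after values were seen, so nothing is read from these comparisons. Its 4 PR60 genes are neighbours that can share reads, and its defensin genes without purple counts are neighbours too. These members are therefore not independent of each other. Besides PR60 and the defensins, TraesCS1B02G064600, a putative xylanase inhibitor (named after its values were seen), had 1.49, 2.29 and 0.769 FPKM in purple and 61.2, 72.8 and 33.9 in white libraries. The member above 50%, TraesCS1B02G115600, a pathogenesis-related protein, had 4.01, 0 and 0.0933 FPKM in purple and 2.16, 1.47 and 0.259 in white libraries, so purple 1 alone carried its level.

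Genes of other functions, among them ribosomal and histone genes, also lay under 10% of white. TraesCS1B02G100100 (1B, 108209953 to 108210922), described as LTI6B, a small hydrophobic membrane protein known from cold-treated rice, had 2.84, 0.176 and 0.209 FPKM in purple and 168, 191 and 169 in white libraries. TraesCS1B02G146100, ribosomal protein S7 of the small cytosolic subunit, had 2.87, 4.24 and 4.32 FPKM in purple and 48.2, 52.8 and 86.0 in white libraries. TraesCS1B02G049100, histone H2A.2.1, a core histone of the nucleosome, had 1.85, 0.154 and 2.26 FPKM in purple and 28.3, 62.3 and 47.0 in white libraries. The groups were well apart in all 3 genes. TraesCS1B02G104500, serine carboxypeptidase 2, a grain protease, had 0.0954, 0.871 and 1.22 FPKM in purple and 188, 45.5 and 0.565 in white libraries, so its groups overlapped at white 3.

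Among 9 expressed members for ribosome and translation, 2 had no purple counts, 4 more lay under 10%, 2 were reduced and 1 lay above 50%. Among 12 for chromatin and DNA replication or repair, 4 lay under 10%, 7 were reduced and 1 lay above 50%. Their medians were 7.0% and 15.6% of white. The companion histone gene TraesCS1B02G048900 (H2A.2.2) averaged 1.29 ± 1.32 FPKM in purple and 21.7 ± 8.61 in white grain. TraesCS1B02G008000, described as Mei2, an RNA-binding protein of meiosis in fission yeast, averaged 0.104 ± 0.0230 FPKM in purple and 19.2 ± 2.85 in white grain.

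A row of 4 genes within 141844772 to 142134604 is described as putative cyclin-dependent kinase F-2. TraesCS1B02G119600, TraesCS1B02G119700 and TraesCS1B02G120100 lay at 1.44%, 1.18% and 1.66% of white. TraesCS1B02G119800 had 0 counts in purple and 1.95 ± 0.467 FPKM in white grain. The 4 neighbours therefore lay close together in percent of white, while their white means ran from 1.95 to 4.65 FPKM. Their purple levels rest on few counts, from 0 to 17 in a library. Neighbours of the same description can share reads, so the split between them is uncertain.

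Among the 20 expressed kinases, phosphatases and signalling members, 8 lay under 10%, 12 were reduced and none lay above 50%. TraesCS1B02G104900, mitogen-activated protein kinase 2 of the phosphorylation cascades that relay stress signals, had 0.670, 0.991 and 1.22 FPKM in purple and 8.07, 13.6 and 11.6 in white libraries. Among 19 transcription factors and regulators, 7 lay under 10%, 10 were reduced and 2 lay above 50%. TraesCS1B02G088900, a WRKY factor, a plant family known from defence responses, had 0.0750, 0.133 and 0 FPKM in purple and 3.60, 13 and 5.30 in white libraries.

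The leading lost members of other lists had roles in RNA handling, metabolism, traffic and transport. TraesCS1B02G135000, the mRNA cap methyltransferase 1, averaged 0.721 ± 0.0850 FPKM in purple and 8.46 ± 0.695 in white grain. TraesCS1B02G100800, an mRNA transport factor, averaged 1.59 ± 0.946 FPKM in purple and 20.0 ± 1.87 in white grain. TraesCS1B02G142000, hexokinase-7, which phosphorylates hexoses, averaged 0.0364 ± 0.0327 FPKM in purple and 2.90 ± 1.72 in white grain. In each of these the purple libraries lay below every white one. TraesCS1B02G018900, a RABA2a small GTPase of membrane traffic, lay at 6.0% of white, and TraesCS1B02G150200, a lactoylglutathione lyase that clears methylglyoxal, at 7.52%. TraesCS1B02G061200, a potassium transporter, lay at 4.85%, and TraesCS1B02G021300, a CDP-diacylglycerol-forming enzyme of phospholipid synthesis, at 4.64%.

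Reduced members, at 10% to under 50% of white, were the largest class with 201 (43.0%), and 192 of them (95.5%) had all purple libraries below all white ones. The limits of this class favour that order, which 70.6% of all expressed genes at 10% to under 50% of white also showed. Their median was 22.2% of white, and they were the more strongly expressed class, with a median white level of 6.47 FPKM against 4.84 FPKM for members with purple counts under 10%. TraesCS1B02G059100 (1B, 41739634 to 41745027), dehydroascorbate reductase, which regenerates ascorbate, had 22.9, 23.9 and 20.7 FPKM in purple and 119, 232 and 113 in white libraries. TraesCS1B02G102700 (1B, 112748629 to 112753960), alanine aminotransferase 2, had 18.3, 24.9 and 21.1 FPKM in purple and 102, 73.4 and 117 in white libraries. TraesCS1B02G126100 (1B, 154153640 to 154157714), a relative of protein disulfide isomerase, which folds secreted proteins, had 24.5, 20.7 and 17.2 FPKM in purple and 78.0, 85.7 and 68.3 in white libraries. The purple libraries lay close to each other in these genes and below every white library.

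Protein folding and heat shock was the one list of at least 4 expressed members that lay wholly in this class, with 7 of 7 at 12.4% to 29.4% of white. Its lowest was TraesCS1B02G011100, a cyclophilin, and its highest TraesCS1B02G088700, a DnaJ co-chaperone (both named after their values were seen). Of 16 expressed members for ubiquitin, F-box proteins and the proteasome, 9 were reduced and 7 lay under 10%. TraesCS1B02G141900, proteasome subunit beta 7-B, one of the catalytic core's ring subunits, had 7.45, 7.32 and 12.7 FPKM in purple and 54.8, 69.0 and 74.4 in white libraries. TraesCS1B02G124100, a universal stress protein, averaged 10.2 ± 1.14 FPKM in purple and 45.6 ± 10.5 in white grain.

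Of 7 expressed starch, sugar and cell wall members, 3 lay under 10% and 4 were reduced. TraesCS1B02G119300, starch synthase III, which elongates amylopectin chains, had 0.921, 0.768 and 2.85 FPKM in purple and 8.90, 11.7 and 9.46 in white libraries. TraesCS1B02G053600, glucose-6-phosphate isomerase of glycolysis, had 2.25, 2.72 and 2.78 FPKM in purple and 23.8, 25.7 and 26.3 in white libraries. Both were named after their values were seen, and in both the groups were clearly apart.

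**Figure D3:**
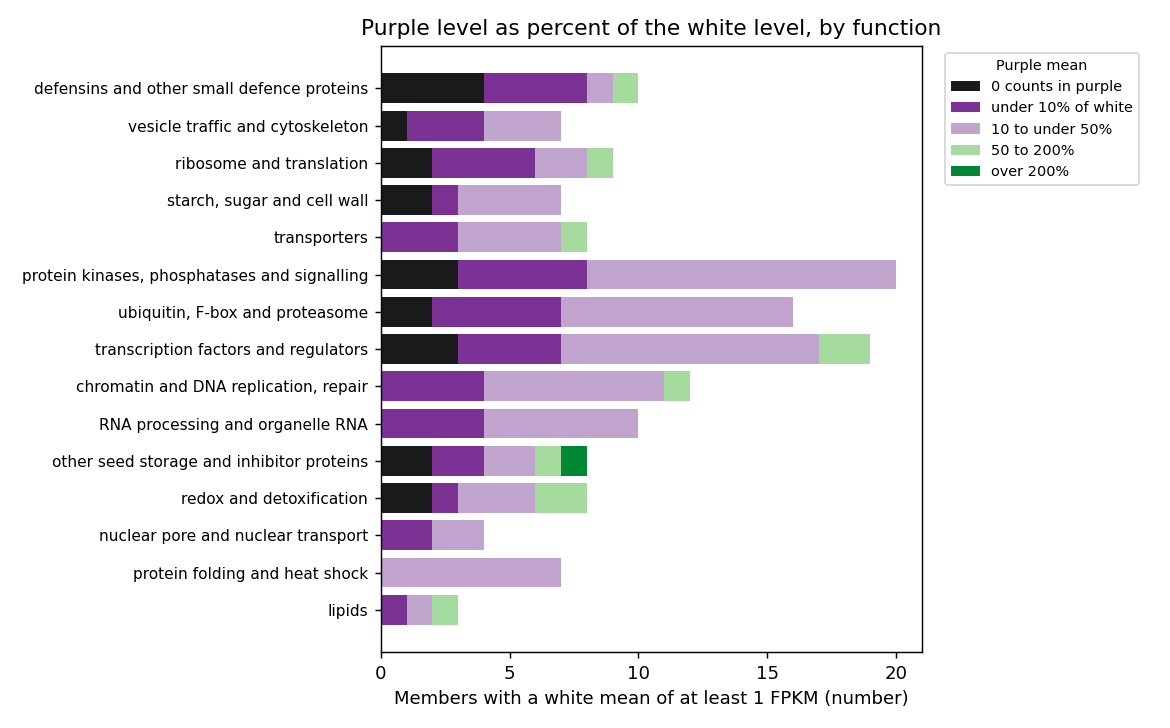
Number of expressed members in each class of purple level (0 counts, under 10%, 10 to under 50%, 50 to 200% and over 200% of white) for the 15 functional lists with at least 3 expressed members, ordered by median percent of white. Defence proteins, a list added after values were seen, stand at the top with 8 of 10 under 10%, and the 7 protein folding members all lie at 10 to under 50%.

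Members that kept their level were few. At least 50% of the white level was left in 31 of 467 members (6.64%), where 85.7% of all expressed genes did so. Of these, 28 lay at 50% to 200% and 3 above 200%. They were scattered: every 20 Mb window up to 200 Mb held between 1 and 6 of them, and none lay beyond 200 Mb. The purple and white libraries overlapped in 22 of the 28 and in 1 of the 3, counts for which no share over all genes is given. All purple libraries lay below all white ones in 5 of the 28 (17.86%). Of all expressed genes at 50% to 200% of white, 17.01% showed this order, so these members were much like other genes of their class in it.

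The most abundant was TraesCS1B02G042200 (1B, 22069090 to 22069961), a metallothionein, a cysteine-rich protein that binds metal ions, with 805, 509 and 223 FPKM in purple and 593, 664 and 195 in white libraries. The ranges overlapped almost wholly. TraesCS1B02G135800, described as metallothionein-like protein 1 (named after its values were seen), lay instead at 0.630% of white. TraesCS1B02G130900 (1B, 162805763 to 162806230), a fusion of ubiquitin and ribosomal protein S27a, had 145, 199 and 199 FPKM in purple and 261, 295 and 312 in white libraries. Its purple libraries all lay below the white ones, at 62.5% of the white mean.

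TraesCS1B02G022800 (1B, 10111346 to 10114127), the 16 kDa proteolipid subunit of the vacuolar proton pump, had 37.1, 26.6 and 23.2 FPKM in purple and 14.4, 18.8 and 12.2 in white libraries, and was higher in each purple library than in any white one. TraesCS1B02G044000, subunit 5 of general transcription factor IIH, which opens DNA in transcription and repair, had 9.36, 10.4 and 10.3 FPKM in purple and 5.96, 22.4 and 13.8 in white libraries. TraesCS1B02G043800, subtilisin-chymotrypsin inhibitor CI-1A, had 1.91, 5.45 and 25.5 FPKM in purple and 8.05, 9.49 and 10.6 in white libraries. Both overlapped, the CI-1A gene with its highest value in purple 3.

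Further members of this class had lower levels. TraesCS1B02G049300, poly(ADP-ribose) polymerase 1, which responds to DNA breaks, averaged 1.34 ± 0.567 FPKM in purple and 2.0 ± 0.447 in white grain. TraesCS1B02G093600, a fatty acyl-CoA synthetase that activates fatty acids, averaged 1.02 ± 0.386 FPKM in purple and 1.02 ± 0.346 in white grain. TraesCS1B02G085100, mitochondrial isovaleryl-CoA dehydrogenase of leucine breakdown, and TraesCS1B02G141700, an NADP-dependent malic enzyme (both named after their values were seen), lay at 96.8% and 98.5% of white.

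The 3 members above 200% of white were TraesCS1B02G080300, TraesCS1B02G084300 and TraesCS1B02G072000, which has no informative description. TraesCS1B02G084300 (1B, 68741857 to 68743955), described as 12S seed storage globulin 1, a legumin-type storage protein, had 24.1, 36.3 and 92.2 FPKM in purple and 2.71, 1.39 and 1.23 in white libraries. TraesCS1B02G080300 (1B, 62681663 to 62681947), a low temperature-induced protein, had 115, 114 and 23.0 FPKM in purple and 14.1, 25.5 and 5.51 in white libraries. The globulin was higher in every purple library, with its highest value in purple 3, while the low temperature-induced gene overlapped at purple 3. The embryo and aleurone markers were also higher in each purple library than in any white one, at 1.14%, 1.54% and 0.310% of summed FPKM in purple and 0.109%, 0.178% and 0.0304% in white libraries. Their part in these genes was not tested.

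**Figure D4:**
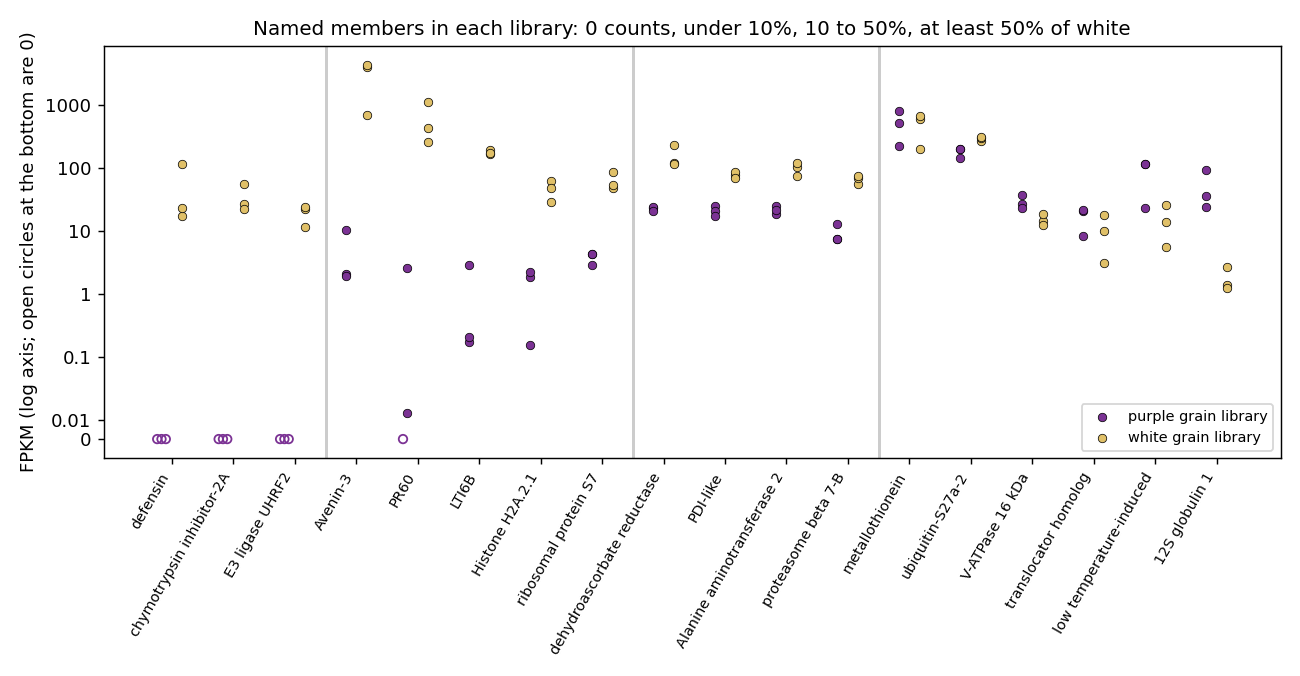
FPKM (log axis, open circles at 0) of 18 named members in each of the 3 purple and 3 white libraries, grouped from left to right into members without purple counts, under 10%, at 10 to under 50% and at 50% of white or more. The purple points lie below all white points in the first 3 groups, and in the last group metallothionein overlaps while the V-ATPase subunit and the 12S globulin lie above. Named members of the lower groups with overlapping libraries, such as TraesCS1B02G034300, TraesCS1B02G104500 and TraesCS1B02G035000, are not drawn.

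Members with counts in purple only were weakly expressed, and their share over all genes is not given here. Among the 48 members with counts in purple only, the highest sum over the purple libraries was 256 counts, and the highest purple mean was 0.882 FPKM, in TraesCS1B02G036300 (RGA1-D, an intracellular immune receptor; named after its values were seen). A mean of at least 1 FPKM in purple and under 1 FPKM in white grain was found for 4 of 1477 members. On the rest of 1B it was found for 186 of 3216 genes, and over the whole table for 4763 of 107891. Of the 4 members, TraesCS1B02G150900 (1B, 234251618 to 234254193), the small GTPase RGP2, had 1.70, 0.997 and 1.72 FPKM in purple and 0.0857, 0 and 0 in white libraries. It lay close to the limit, near expressed members at 11.7% to 46.1% of white.

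Disease resistance genes, for which this chromosome arm is known, were hardly expressed in either grain. Of 78 members described as NLR proteins, the intracellular receptors of pathogen effectors, 23 had any count and none reached a white mean of 1 FPKM. Their summed counts were 221, 132 and 199 in the purple and 1156, 1181 and 671 in the white libraries. Of 56 receptor-like and wall-associated kinases, 18 had counts and 1 was expressed, TraesCS1B02G130300 (HERK 1-like, a cell wall sensing receptor; named after its values were seen), at 0.824 FPKM in purple and 7.38 FPKM in white grain. Of 29 glycosyltransferase, cytochrome P450 and secondary metabolism members, 1 was expressed, TraesCS1B02G122800, phenylalanine ammonia-lyase, the entry enzyme of phenylpropanoid synthesis (named after its values were seen), at 0.591, 0.0651 and 0.102 FPKM in purple and 1.95, 4.16 and 2.13 in white libraries. None of the 4 members listed under mitochondrial and plastid energy was expressed.

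The A and D copies were compared where a description was carried by exactly 1 gene on each of 1A, 1B and 1D, which gave 148 gene sets with a member, 87 of them with an expressed member. The B copy made up a median of 7.79% of the summed A, B and D level in purple grain and 33.2% in white grain. The medians by library were 7.27%, 7.80% and 7.85% in purple and 33.5%, 33.6% and 34.2% in white libraries. On the rest of 1B, 200 sets chosen in the same way gave 35.8% in purple and 32.5% in white grain. The share lay lower in all purple than in all white libraries in 84 of the 87 sets, against 22 of the 200. The B level that set the coordinate limit enters this share, so it is a description without a test.

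**Figure D5:**
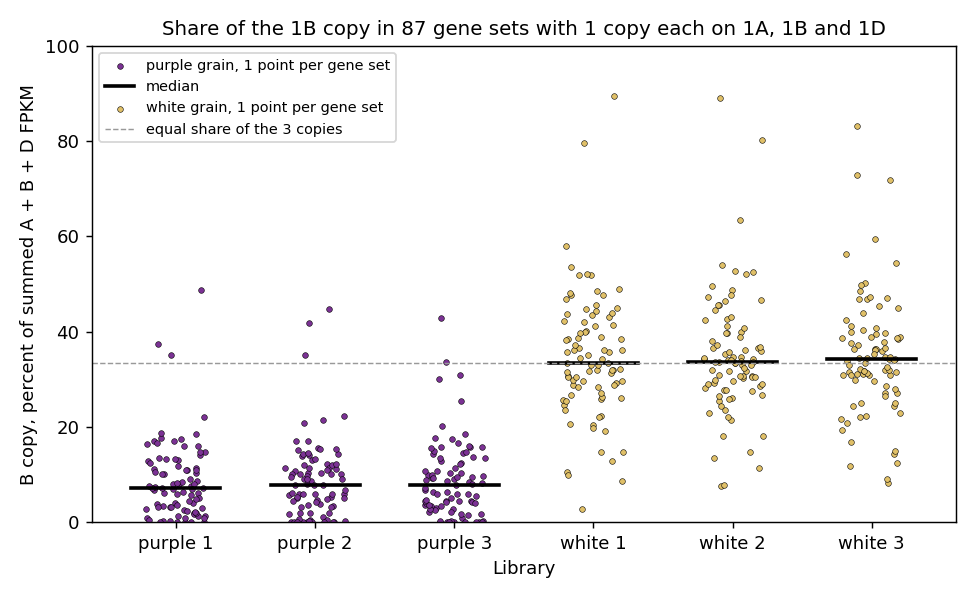
Share of the B copy in the summed FPKM of the A, B and D copies, in percent, for 87 gene sets with an expressed member, in each purple and white library, with bars at the medians and a dashed line at an equal share. The medians lie at 7.27% to 7.85% in purple and at 33.5% to 34.2% in white libraries.

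The sum of the 3 copies stood at a median of 70.6% of white in purple grain (quartiles 56.7% and 92.7%), against 96.3% for the sets on the rest of 1B. The A and D copies alone summed to 101% of white (quartiles 81.2% and 127%), against 92.7% for those sets. By class of the B copy, the A and D sum lay at 121% where B had no counts (3 sets), 84.9% where B lay under 10% (31 sets), 107% where B was reduced (47 sets) and 96.3% where B lay at 50% to 200% (5 sets). In the 1 set with B above 200%, the low temperature-induced protein, it lay at 947%. The difference between these classes was not tested.

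LTI6B was a gene set at a high level with a low share of B in purple grain. The 1B gene TraesCS1B02G100100 averaged 1.07 FPKM in purple and 176 in white grain, its A copy TraesCS1A02G082500 averaged 54.9 in purple and 55.1 in white grain, and its D copy TraesCS1D02G083900 averaged 103 in purple and 155 in white grain (edgeR adjusted p of 0.922 for A and 0.319 for D). The D copy was lower in each purple library, at 143, 93.8 and 72.0 FPKM, than in any white one, at 153, 164 and 148. The share of B was 0.676% in purple and 45.6% in white grain. The summed level of the 3 copies was 159 FPKM in purple and 386 in white grain, or 41.1% of white.

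For histone H2A.2.1 (TraesCS1B02G049100), the A copy averaged 48.7 ± 24.1 FPKM in purple and 43.2 ± 24.5 in white grain, and the D copy averaged 42.6 ± 16.8 in purple and 28.2 ± 10.3 in white grain. The sum reached 79.0% of white. For ribosomal protein S7 (TraesCS1B02G146100), the A copy averaged 24.8 ± 6.89 FPKM in purple and 43.8 ± 22.9 in white grain, the D copy 28.5 ± 3.38 in purple and 39.1 ± 13.9 in white grain, and the sum reached 39.3% of white. None of these copies passed the edgeR test. For Mei2 (TraesCS1B02G008000) the share of B was 0.273% in purple and 33.1% in white grain.

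Some members that kept their level still made up a smaller share of their gene set in purple grain. For the translocator protein homolog TraesCS1B02G121200, a stress-related membrane protein, the B copy averaged 16.9 ± 7.55 FPKM in purple and 10.1 ± 7.23 in white grain. Its A copy TraesCS1A02G093000 averaged 73.5 ± 43.3 in purple and 11.9 ± 7.42 in white grain, and its D copy TraesCS1D02G101700 averaged 61.4 ± 32.7 in purple and 6.67 ± 4.77 in white grain (edgeR adjusted p of 0.0875 for A and 0.0700 for D). The share of B was therefore 11.1% in purple and 35.4% in white grain. For glutathione transferase F3 (TraesCS1B02G113500), which couples glutathione to toxic compounds, the share of B was 18.2% in purple and 34.6% in white grain. For the low temperature-induced protein (TraesCS1B02G080300) it was 36.0% in purple and 48.8% in white grain.

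The share of B was not lower in 3 of the 87 sets. For alcohol dehydrogenase-like 3 (TraesCS1B02G066400), the B copy averaged 2.82 ± 1.12 FPKM in purple and 2.17 ± 1.12 in white grain, and its share was 39.8% in purple and 14.9% in white grain. The FPKM of this B copy overlapped between the grain types. Its A copy averaged 2.36 FPKM in purple and 7.99 in white grain, and its D copy 1.91 and 4.41. Neither copy passed (edgeR adjusted p of 0.0837 for A and 0.121 for D). For the fatty acyl-CoA synthetase (TraesCS1B02G093600) the share was 12.8% in purple and 12.4% in white grain, and its libraries overlapped. For beta-hexosaminidase 1 (TraesCS1B02G058700), a glycosidase that trims protein sugar chains, it was 14% in purple and 8.22% in white grain. These last 2 were named after their values were seen.

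Tested in the fit over all genes, few A and D copies were called, as was the case for all tested genes. Copies that were not called may still differ between the grain types. Of 99 A copies tested, 2 passed as higher and 1 as lower in purple, with a median log2 difference of 0.09. Of 101 D copies tested, 3 passed as higher and 1 as lower, with a median of 0.20. For the sets on the rest of 1B, 8 of 247 A copies passed as higher and 2 as lower (median 0.07), and 8 of 252 D copies passed as higher and 1 as lower (median 0.06). Over all tested genes, 2.87% were called higher and 2.32% lower. At an unadjusted edgeR p under 0.05, 17 A and 23 D copies of members were higher (17.2% and 22.8%), where 14.2% of all tested genes were. At the same p, 7 A and 6 D copies were lower (7.07% and 5.94%), where 12.6% of all tested genes were.

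The D copy of TFIID subunit 6, TraesCS1D02G002300, a part of the complex that recognises promoters, fell to 0.941 ± 0.202 FPKM in purple, against 7.26 ± 1.39 in white grain (edgeR log2 difference -2.82, SE 0.26, edgeR adjusted p = 0.00601). It kept this call under all 14 alternatives run on it, with a highest adjusted p of 0.0338. Its B copy TraesCS1B02G007800 lay at 12.6% of white, and its A copy TraesCS1A02G005600 averaged 3.71 ± 0.454 in purple and 2.5 ± 0.768 in white grain and did not pass. The A copy of ABCG12, TraesCS1A02G126900, a member of the ABC transporter family, fell to 1.30 ± 0.145 FPKM in purple, against 5.50 ± 2.35 in white grain (log2 difference -1.95, SE 0.36, edgeR adjusted p = 0.0332). It lost the edgeR call without purple 1, purple 2, white 2 or white 3, at adjusted p of 0.1, 0.122, 0.0939 and 0.0809.

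Both copies of a kinesin-related motor protein rose in purple grain. The A copy TraesCS1A02G054400 averaged 1.49 ± 0.223 FPKM in purple and 0.388 ± 0.140 in white grain (log2 difference 2.06, SE 0.33, edgeR adjusted p = 0.0238), and it lost the call without purple 1, purple 2, white 2 or white 3 at adjusted p of 0.0518, 0.0853, 0.0669 and 0.0667. With limma on log2(FPKM + 1) its log2 difference of 0.84 was under the size limit. The D copy TraesCS1D02G055200 averaged 1.21 ± 0.199 FPKM in purple and 0.235 ± 0.0534 in white grain (log2 difference 2.49, SE 0.31, edgeR adjusted p = 0.0116), and it lost the call without purple 2 at an adjusted p of 0.0521. With limma on log2(FPKM + 1) its log2 difference was likewise 0.84. The B copy TraesCS1B02G071500 was weak in both, at 0.248 ± 0.0914 FPKM in purple and 0.346 ± 0.102 in white grain.

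The A copy of an E3 ubiquitin ligase, TraesCS1A02G034300, rose to 5.88 ± 1.11 FPKM in purple, against 1.64 ± 0.513 in white grain (log2 difference 1.95, SE 0.32, edgeR adjusted p = 0.0259). It lost the call without purple 2, white 2 or white 3 at adjusted p of 0.0967, 0.0868 and 0.0665. The D copy of the low temperature-induced protein, TraesCS1D02G062900, rose to 97.5 ± 58.0 FPKM in purple, against 10.0 ± 4.70 in white grain (log2 difference 3.41, SE 0.64, edgeR adjusted p = 0.0353). Its call was kept without purple 3 and lost without any other single library, at adjusted p of 0.0645 to 0.114. Its A copy TraesCS1A02G062000 averaged 51.7 ± 33.5 FPKM in purple and 5.76 ± 5.29 in white grain and did not pass (adjusted p = 0.0872).

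The D copy of brittle-1, TraesCS1D02G116900, the carrier family that brings ADP-glucose into amyloplasts, rose to 1.01 ± 0.381 FPKM in purple, against 0.203 ± 0.0544 in white grain (log2 difference 2.42, SE 0.47, edgeR adjusted p = 0.0398). Its call was lost without purple 3 or any white library, at adjusted p of 0.0510 to 0.129, and without purple 2 the gene was under the filter. It was also lost when libraries were scaled by total counts (adjusted p = 0.0521) and with limma on log2(FPKM + 1) or log2(FPKM + 0.1) (limma adjusted p = 0.0659 and 0.0569). The call was kept in 4 of the 12 alternatives that could be run on it. The B copy TraesCS1B02G135400 was under 1 FPKM in both, at 0.0358, 0.0202 and 0 FPKM in purple and 0.538, 0.662 and 0.754 in white libraries.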

How the data were processed

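RNA sequencing of 6 wheat grain libraries, 3 per grain type, was analysed from one gene table. The submitters' processing notes name the tools cutadapt, HISAT2 and StringTie. What each of them did, its version, the strand setting, the build and the annotation are not given in the sources used here. The deposited values are, per the file headers, whole-number counts for each gene and library. Beside them, also per the file headers, stand the authors' FPKM, scaled for gene length and library size. Where the count was 0, the deposited FPKM was 0.0001 in 100% of cases, and it was taken as 0. A further 12 measurement columns, from 6 libraries that match no labelled sample, were not used.

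Levels are FPKM, with SD over 3 libraries. Purple was fitted against white with edgeR 4.0.16 in R 4.3.3 (TMM scaling, quasi-likelihood test, no replicate block) for the 48492 genes whose mean reached 0.5 FPKM. Genes were called by a Benjamini-Hochberg adjusted p below 0.05 together with a log2 difference of 1 or more in size. The common biological coefficient of variation came to 0.488. The SE of a log2 difference is its size over the square root of F. Bounds against 0 use a floor of 3 counts per library, and these bounds cover counting error only. The steps were tested on simulated counts. Every pair of replicate libraries differed by more than counting noise.

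Members, lists and rules were chosen with earlier results of these data known. The 20 lists are patterns on descriptions. Some patterns were tightened and 2 lists (small defence proteins, nuclear pore) added after values were seen, so they support nothing by themselves. Of 1477 members, 655 had an informative description and 487 fell in a list (209 and 152 of the expressed). A description names a protein that may come from another species. Named genes were the 6 highest of each class with informative descriptions, the leading lost and retained member of each list, the 4 expressed genes nearest the limit on each side, the 8 leading gene sets with a lost and the 4 with a retained B copy, and sets with a called copy. Other named genes, including further genes of a shared description, were picked with their values in view. The alternatives were scaling, filter, test (DESeq2 1.42.0, limma 3.58.1), a replicate block, class limits, the coordinate limit, the matching of copies and each library.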

Additional observations from a re-analysis of the deposited data

How the results depend on the processing

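The median log2 difference of the expressed members stayed negative under every alternative run on it. Members called lower numbered 270 to 415 with other scalings, filters or tests, and 173 to 354 when 1 library was left out; of all tested genes, 1.69% to 6.20% and 0.735% to 5.02% were called lower in these. The 280 calls with a replicate block included 271 of the 337. Deviations of same-numbered libraries correlated at 0.183, 0.00657 and 0.336, and those of differently numbered ones at -0.319 to 0.107. These values do not decide whether the numbers are pairs. The main fit did not take them as pairs, and the replicate block did. Members called higher numbered 2 with RLE size factors, the replicate block, no filter, a filter at 1 FPKM or limma with either pseudocount. They numbered 5 with DESeq2, and 0 to 4 when 1 library was left out. The share of all tested genes called higher is not given for these. Without 1 library, 5 to 10 members (0.975% to 2.11%) were higher at an unadjusted edgeR p under 0.05, where 9.59% to 15.9% of all tested genes were. The share of expressed members under 10% of white was 40.2% for a white mean of at least 5 FPKM; other limits for the loss, 5% and 25%, gave 34.5% and 76.4%. It ranged from 47.4% to 52.0% when 1 library was left out. The median log2 difference was -3.36 with total counts, -2.89 with a filter at 1 FPKM, -1.63 and -3.02 with limma on log2(FPKM + 1) and log2(FPKM + 0.1), -3.09 and -2.78 for white means of at least 0.5 and 5 FPKM, and -3.24 to -3.0 when 1 library was left out; the pseudocount draws low purple values towards white by construction.

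Calls among the copies rested on few libraries. A copies called lower numbered 2 with DESeq2 or limma with either pseudocount, and 0 to 3 when 1 library was left out. DESeq2 called 6.20% of all tested genes lower, limma 3.47% and 4.14%, and the fits without 1 library 0.735% to 5.02%. At an unadjusted edgeR p under 0.05, 4 to 9 A copies were lower without 1 library, where 7.99% to 15.5% of all tested genes were. A copies called higher numbered 11 with DESeq2, 1 with limma on log2(FPKM + 1), 4 with descriptions matched without species and case (chosen after seeing the data), and 0 to 5 when 1 library was left out (15 to 20 unadjusted), with none called without purple 2, white 2 or white 3. D copies called lower numbered 4 with DESeq2 and 1 to 2 when 1 library was left out. D copies called higher numbered 1 with a filter at 1 FPKM, 10 with DESeq2, 5 with descriptions matched without species and case, and 0 to 3 when 1 library was left out (15 to 22 unadjusted), with none called without purple 2. With a replicate block they numbered 4, of which 2 were among the 3, and brittle-1 (TraesCS1D02G116900) had an adjusted p of 0.0595. The 2 A copies called higher with the block were other genes, with adjusted p of 0.0579 for TraesCS1A02G034300 and 0.0548 for TraesCS1A02G054400. The causes of these shifts were not tested. A copy that did not pass is not shown to be alike in both grain types.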
